A study of Noccaea caerulescens and Thlaspi montanum with 10 samples.

Results

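In field leaves of the nickel hyperaccumulator Noccaea caerulescens subsp. firmiensis (firmiensis), 37 of 41841 assembled transcripts were strongly reduced against 2 plants that do not accumulate nickel. They were chosen by level: at least 3 CPM (read counts scaled to the total of their library) in all 4 libraries of N. caerulescens from Viviez (Viviez) and of Noccaea montana, with the lowest of these 4 values at least 6 times the higher firmiensis value. The floor of 3 CPM was met by 14127 transcripts, of which the 37 are 0.262%. Because the choice rests on the firmiensis values, these are given as a description and carry no test.

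Nickel hyperaccumulators are plants that take up nickel from metal-rich soil, move it to the shoot and store it in leaf cells, mostly in vacuoles. The known machinery of this trait in Noccaea and other hyperaccumulators consists of metal transporters and metal-binding small molecules, often made at higher levels than in related plants. Transcripts that are lower in a hyperaccumulator can be listed from the same kind of comparison. Whether those listed here have a part in nickel accumulation was not tested.

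The groups were wild firmiensis plants from Puy de Wolf, labelled nickel hyperaccumulators and collected in July, and wild Viviez and N. montana plants, labelled as not accumulating nickel and collected in June at Viviez and at Suc de Clava. Each plant gave leaves of 2 individuals, kept in RNAlater, and each individual gave 1 polyA RNA library. Site and plant coincide, July coincides with firmiensis, and their parts in any firmiensis difference cannot be told apart. All 6 libraries were counted on transcripts assembled from roots and leaves of a hydroponically grown firmiensis plant, so every transcript described here, also those without a read in the field leaves, had been listed from firmiensis RNA.

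Library totals ran from 59476715 to 68439128 counted reads, at which 3 reads, the limit that a count of 0 allows, correspond to 0.0438 to 0.0504 CPM in a library. These limits cover counting error only. Transcripts carry contig numbers and no gene names or sequences were available for analysis here, so no function is given to any of them, leaf identity could not be checked against marker genes, and fewer cells of a type cannot be told apart from less RNA per cell. Near-identical transcripts can share reads, which was not resolved.

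The reduced transcripts together held few reads in firmiensis and a small share elsewhere. They made up 0.00347% and 0.00444% of the reads of firmiensis individuals 1 and 2, 0.198% and 0.183% of those of Viviez, and 0.10% and 0.0946% of those of N. montana. The group means were 0.00396 ± 0.000686% for firmiensis, 0.191 ± 0.0108% for the Viviez plants and 0.0973 ± 0.00384% for N. montana (SD over n = 2 individuals). The Viviez share was carried by few transcripts: contig_5248 alone held 34.3% and 33.2% of the reads on the 37 in its 2 libraries, and the top 3 held 52.6% and 52.0%. In N. montana the top 3 held 38.7% and 34.1%.

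The median transcript of the 37 stood at 0.420 and 0.446 CPM in the firmiensis libraries, at 23.2 and 22.6 CPM in Viviez and at 12.7 and 16 CPM in N. montana. By pooled reads the median fold over firmiensis was 32.9 for Viviez and 29.3 for N. montana, with transcripts at 0 reads in firmiensis set against 3 reads over both of its libraries. The lowest folds were 6.34 for Viviez and 7.94 for N. montana. The fold was larger for Viviez in 22 transcripts and larger for N. montana in 15.

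**Figure D1:**
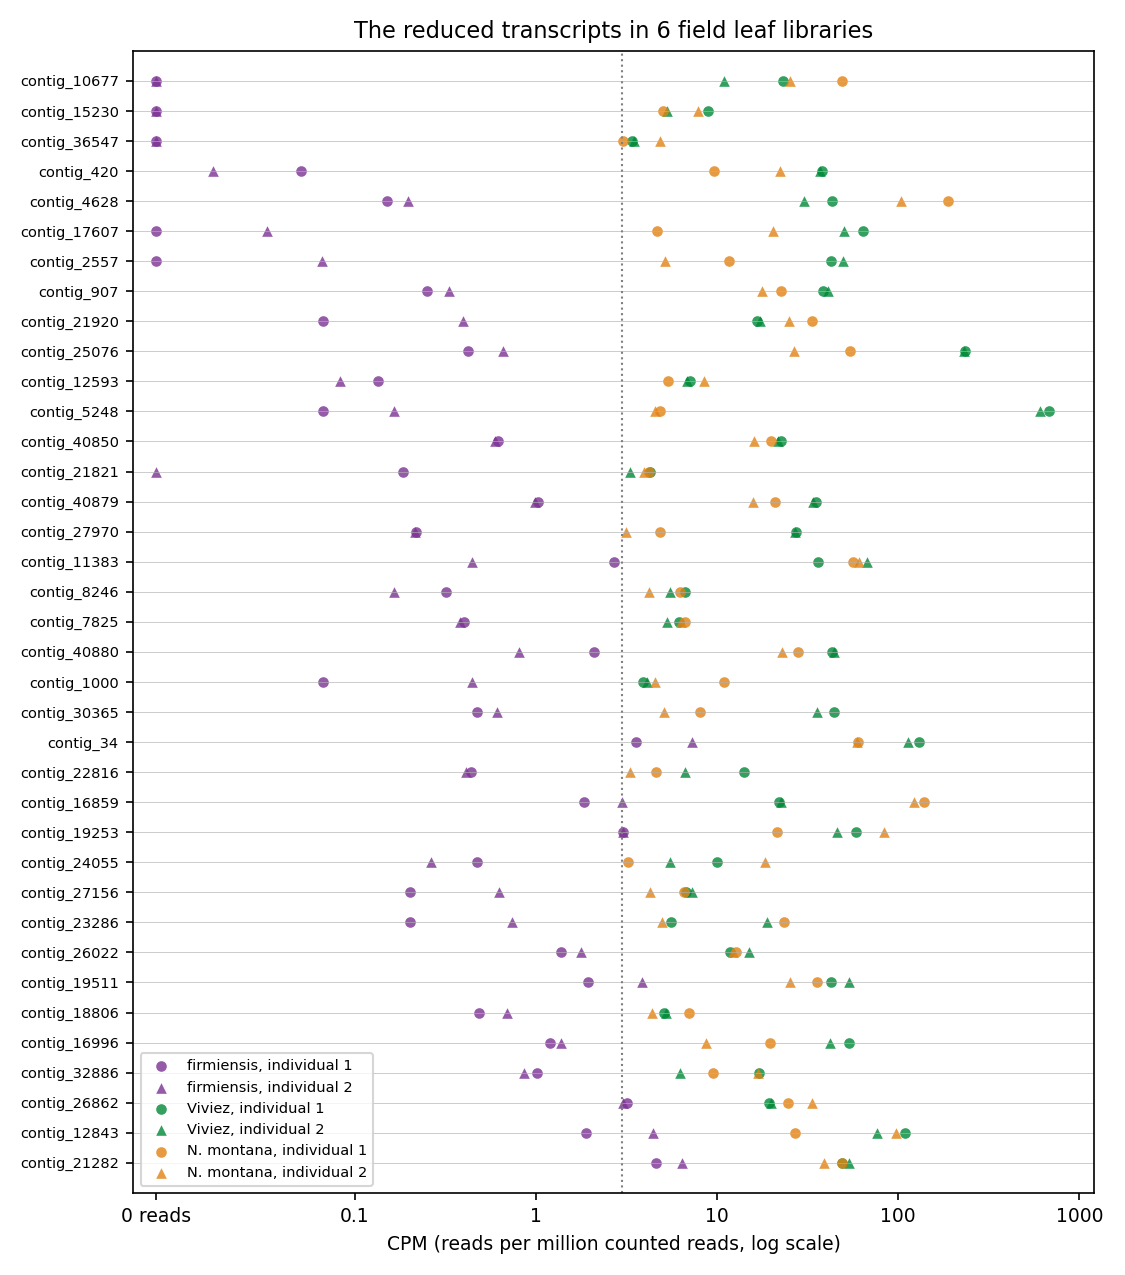
CPM of the 37 reduced transcripts (rows, ordered by the ratio of the lowest Viviez or N. montana value to the higher firmiensis value) in each of the 6 libraries, on a log axis, with values at 0 reads drawn at the left edge and the 3 CPM floor dotted. Colour gives the plant and shape the individual. All firmiensis points lie left of the other points of their row, and the contig_5248 points of Viviez, at 679.5 and 607 CPM, lie farthest right.

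Most of the reduced transcripts were still read in firmiensis. Reads were found in both firmiensis libraries for 31 of the 37, and 33 had over 3 reads over both libraries, whereas 3 had no read in either. Over both libraries 28 transcripts had over 20 reads, 5 had 4 to 20 and 1 had 1 to 3. Levels were low all the same: 24 stayed under 1 CPM in both individuals, and 9 reached 1 CPM in both.

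Contig_10677 was the transcript without a firmiensis read that stood highest elsewhere. Its Viviez individuals stood at 23.2 and 10.9 CPM, its N. montana individuals at 49.1 and 25.2 CPM. Against 3 reads over both firmiensis libraries, which is 0.025 CPM, its pooled reads were 690-fold higher in Viviez and 1486-fold higher in N. montana. These folds put 3 reads in place of 0 and are lower bounds, not estimates. The lower 95% limits for counting error, taken from the 0 reads themselves, were 561 and 1208. They do not allow for the choice of the transcript by its low firmiensis reads. Contig_15230 also had no read in firmiensis, while Viviez individuals held 8.90 and 5.29 CPM and N. montana individuals 5.06 and 7.84 CPM. Against the same 3 reads its pooled reads were 286-fold higher in Viviez and 258-fold higher in N. montana, again as lower bounds. The lower 95% limits from 0 reads were 232 and 209. The levels of Viviez and N. montana overlapped for contig_15230, and for contig_10677 both N. montana individuals lay above both Viviez individuals.

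Among transcripts with firmiensis reads, contig_420 and contig_4628 had the widest gaps. Contig_420 was counted with 3 reads and 1 read in firmiensis (0.0504 and 0.0165 CPM), against 37.7 and 37.0 CPM for Viviez and 9.66 and 22.3 CPM for N. montana. Its lowest value outside firmiensis was 191 times the higher firmiensis value, a ratio that rests on those 4 firmiensis reads. Contig_4628 had 9 and 12 reads in firmiensis (0.151 and 0.198 CPM), 43.3 and 30.2 CPM for Viviez and 188 and 104 CPM for N. montana, a ratio of 153. The firmiensis individuals lay close together in contig_4628, and the plants came in the order firmiensis, Viviez, N. montana with no overlap.

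At the other end, contig_21282 and contig_34 kept the highest levels in firmiensis. Contig_21282 stood at 4.62 and 6.41 CPM in firmiensis, 48.9 and 53.4 CPM for Viviez and 48.9 and 38.7 CPM for N. montana, with overlapping levels in the plants without nickel accumulation. Contig_34 stood at 3.58 and 7.31 CPM in firmiensis, 131 and 113 CPM for Viviez and 60.2 and 59.1 CPM for N. montana. All 3 plants were apart for contig_34, with Viviez highest.

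The 6-fold line divides a continuous range of ratios. The ratio was 32 or more, or had no firmiensis read below it, in 11 of the 37 transcripts, 16 to 32 in 3, 8 to 16 in 9 and 6 to 8 in 14. Contig_21282 was just inside, at 6.04, and contig_1934 just outside, at 5.89, with 7.31 and 5.99 CPM in firmiensis and a lowest value of 43.0 CPM elsewhere. Ratios of 6 to 7 were held by 11 transcripts and ratios of 5 to 6 by 19.

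The number of reduced transcripts depends on how CPM are scaled. With library totals adjusted by TMM factors, which ran from 0.866 to 1.17 and lowered the mean log2 difference of Viviez and N. montana from firmiensis by 0.17, 22 of the 37 met the rule. Of the 15 others, 4 fell under the 3 CPM floor, and the lowest ratio among the 15 was 5.10.

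**Figure D2:**
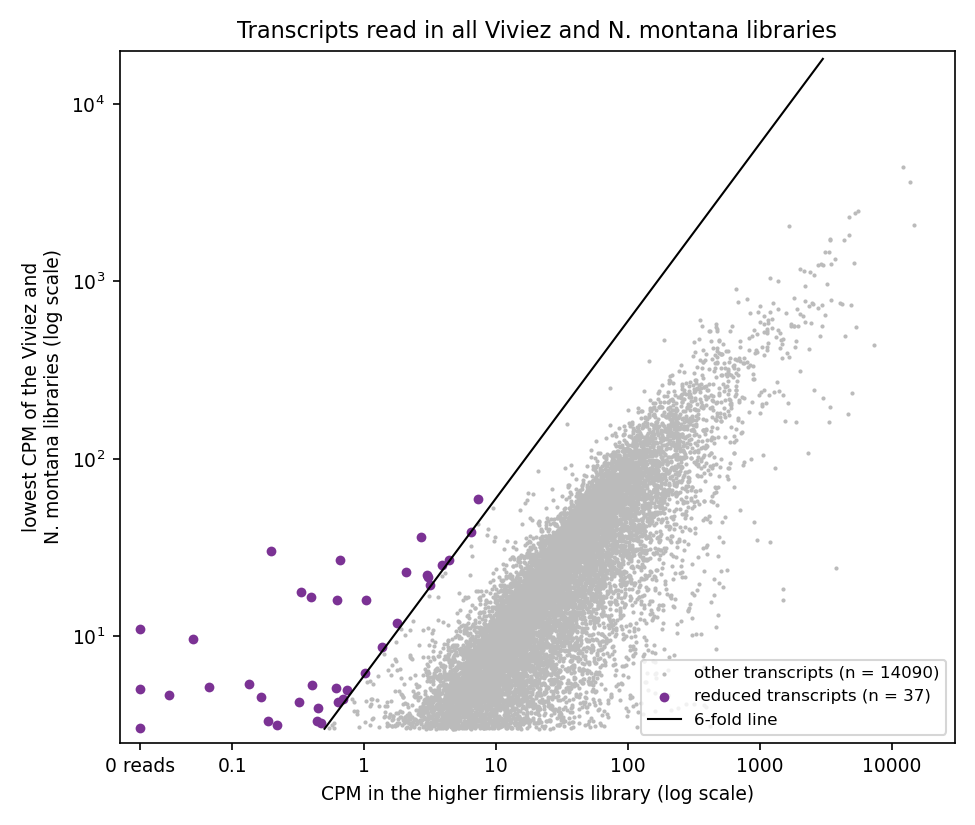
Lowest CPM of the Viviez and N. montana libraries against CPM in the higher firmiensis library, both on log axes, for the 14127 transcripts with at least 3 CPM in all 4 Viviez and N. montana libraries. Purple points are the 37 reduced transcripts on or above the 6-fold line, grey points the others, and transcripts at 0 reads in firmiensis are drawn at the left edge.

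The same rule applied to each of the other plants chose more transcripts. In Viviez 193 of 14271 transcripts that met the floor elsewhere were reduced (1.35%), and in N. montana 274 of 14254 (1.92%). With the rule turned round, its floor included, 188 transcripts were at least 6 times higher in both firmiensis libraries than in all others. The count was 153 for Viviez and 770 for N. montana. No total of transcripts at the floor was taken for this direction, so the raised counts cannot be compared as shares. These numbers rest on a transcript list assembled from firmiensis, and the part of that list in them was not tested.

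How far the firmiensis individuals met the rule together is described by leaving each out of the choice in turn. When firmiensis individual 1 was left out of the rule, 76 transcripts were chosen on individual 2, and in individual 1 the same 6-fold line was met by 37 of them (48.7%). Over all 14127 transcripts that met the floor, individual 1 met it in 0.779%. When individual 2 was left out, 110 transcripts were chosen on individual 1, and 37 of them (33.6%) met the line in individual 2, against 0.538% of all 14127. Both counts end in the same 37 because a transcript that meets the line in both individuals is by construction one of the reduced transcripts. The 0.779% are the 110 transcripts chosen on individual 1, and the 0.538% are the 76 chosen on individual 2. Both readings thus describe the same overlap of these lists and are not independent checks.

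The choice and the left-out individual were set against the same 4 Viviez and N. montana libraries. A high value there favours both, and the shares over all 14127 do not account for this. With individual 1 left out, 4 of 6 alternatives gave a share above 50%, up to 60.7% with a floor of 10 CPM, and with individual 2 left out 0 of 6 did. A weaker reduction, of at least 3-fold, was found in the left-out individual for 49 of 76 and 65 of 110 transcripts. In 14 of 76 and 18 of 110 the left-out individual stood above the lowest Viviez or N. montana value. The farthest of these, singled out after their values were seen, were contig_16651, with 47.8 CPM (2844 reads) in firmiensis individual 1 and 0.0495 CPM in individual 2, and contig_5158, with 1.13 CPM in individual 1 and 308 CPM (18628 reads) in individual 2. Neither belongs to the 37.

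**Figure D3:**
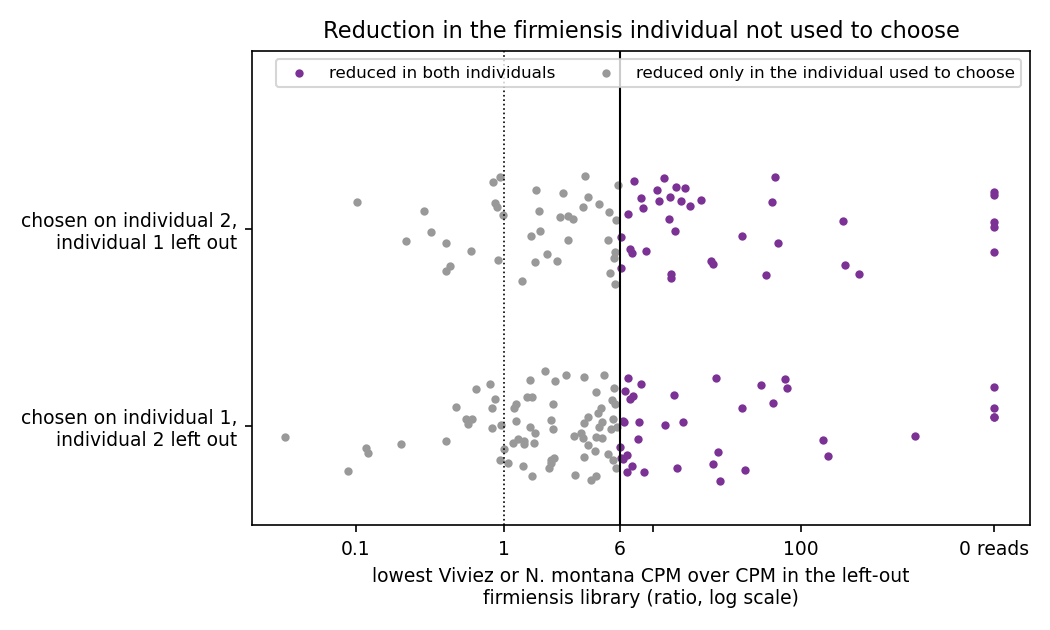
Ratio of the lowest Viviez or N. montana CPM to the CPM of the firmiensis individual left out of the choice (log axis), for the 76 transcripts chosen on individual 2 and the 110 chosen on individual 1. The solid line marks 6, the dotted line 1, points without a read in the left-out library are at the right edge, and vertical position within a row is random. In each row 37 points lie at or beyond the solid line, and 14 and 18 lie left of the dotted line.

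Within the 37, the firmiensis individuals also differed from each other. For the 25 transcripts with at least 10 reads in both firmiensis libraries the median absolute log2 ratio between the individuals was 0.47, and 19 were within 2-fold. For 14091 transcripts that met the floor and had at least 10 reads in both firmiensis libraries it was 0.32. The rule keeps the firmiensis reads of the 25 low, where counting error widens ratios. Its part in the difference was not tested. Of these 25, contig_11383 had the largest ratio, with 160 reads (2.69 CPM) in individual 1 and 27 reads (0.446 CPM) in individual 2. Viviez had 36.0 and 67.3 CPM of it and N. montana 56.3 and 60.4 CPM, far above both firmiensis values.

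Between individuals of the other plants the reduced transcripts varied more in N. montana than in Viviez. The median absolute log2 ratio between individuals was 0.63 in N. montana, against 0.27 over all 14127, and 0.22 in Viviez, against 0.19. Within 2-fold were 27 of 37 in N. montana (73.0%, against 93.6% over all 14127) and 33 of 37 in Viviez (89.2%, against 97.0%). The reduced transcripts were read at lower levels than the 14127, with a median of the lowest value of 8.64 CPM against 18.0, and its part in this spread was not tested.

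Contig_24055 and contig_23286 had the largest ratios between individuals in N. montana and in Viviez. Contig_24055 stood at 3.21 and 18.3 CPM in N. montana and at 10.0 and 5.5 CPM in Viviez, with 0.471 and 0.264 CPM in firmiensis. Contig_23286 stood at 5.57 and 18.9 CPM in Viviez and at 23.3 and 4.98 CPM in N. montana, with 0.202 and 0.743 CPM in firmiensis. In both, the spread between individuals of the same plant was as wide as the distance between Viviez and N. montana.

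Other reduced transcripts were nearly level outside firmiensis. All 4 Viviez and N. montana libraries lay within 2-fold of each other for 14 of the 37 (37.8%), against 54.7% of all 14127. The closest were contig_7825 and contig_26022. Contig_7825 stood at 6.19 and 5.28 CPM for Viviez, 6.66 and 6.36 CPM for N. montana and 0.404 and 0.380 CPM in firmiensis. Contig_26022 stood at 11.8 and 15.0 CPM for Viviez, 12.7 and 12.3 CPM for N. montana and 1.38 and 1.77 CPM in firmiensis. Neither differed between Viviez and N. montana past the threshold, with edgeR adjusted p of 0.889 and 0.321.

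The comparison of Viviez with N. montana, which is not the contrast the choice was made on, asks whether the plants without nickel accumulation share the level of these transcripts. It was made with edgeR's quasi-likelihood test over all 32989 transcripts tested, at a Benjamini-Hochberg adjusted p of 0.05. All 37 reduced transcripts were tested. The fit took in all 6 libraries, so the spread between the firmiensis individuals, whose values the choice used, enters the result. Of the 37, 14 differed (37.8%), near the 36.6% of all transcripts tested and the 32.5% of the 14127 that met the floor. They were higher in Viviez in 12 cases (32.4%, against 16.1% of all tested and 18.3% of the 14127) and higher in N. montana in 2 (5.41%, against 20.5% and 14.2%). The log2 fold change was above 0, that is higher in Viviez, for 30 of the 37 (81.1%), against 54.4% of the 14127. With only the 4 Viviez and N. montana libraries in the fit, 16 of the 37 differed (43.2%), against 41.6% of all tested.

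The median log2 fold change of Viviez over N. montana was 0.46 over the 37, 0.09 over the 14127 and -0.08 over all tested. These values are on the TMM-scaled level, which raises Viviez against N. montana by 0.26 on the log2 scale relative to CPM by library totals. On library totals both Viviez individuals lay above both N. montana individuals in 16 of the 37 transcripts (background 30.2%) and below in 7 (background 44.6%), so that 23 did not overlap (background 74.7%). With TMM scaling, added after the values were seen, the counts were 20 and 4, against 41.8% and 33.2% of the 14127. The choice did use these libraries: the rule bounds each of them from below, by the 3 CPM floor and by 6 times the firmiensis level, and so keeps out transcripts that are low in either plant.

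**Figure D4:**
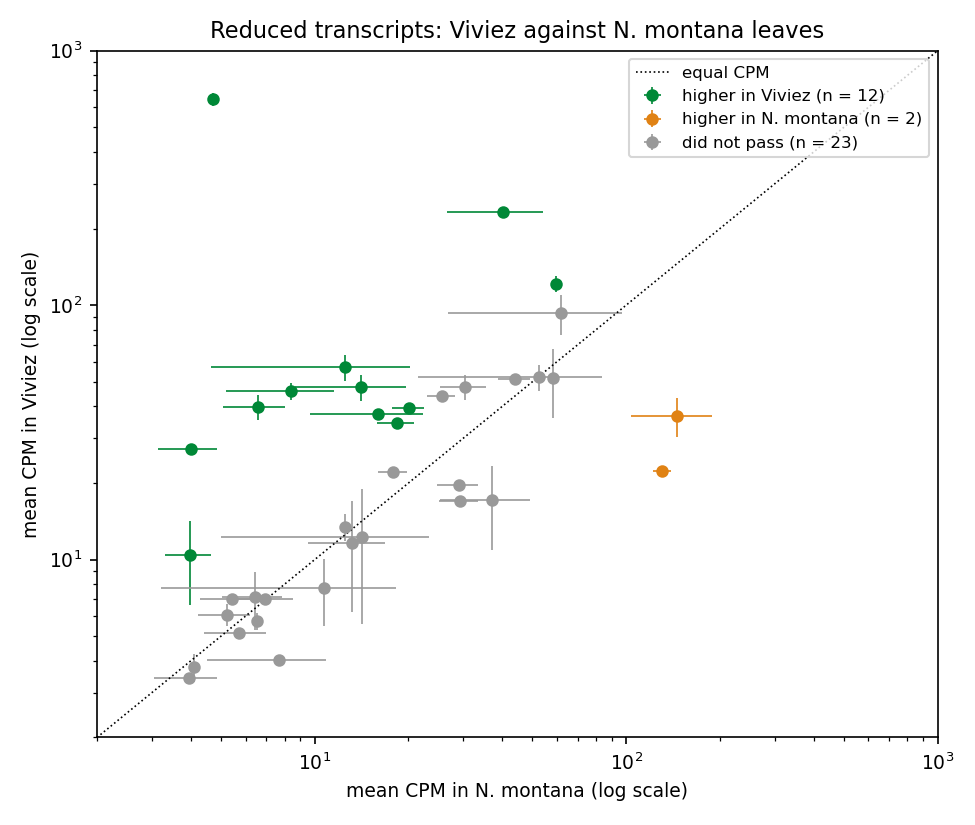
Mean CPM in Viviez against mean CPM in N. montana for the 37 reduced transcripts, on log axes, with bars spanning the 2 individuals of each plant and the dotted line marking equal CPM. Green points are the 12 transcripts higher in Viviez and orange points the 2 higher in N. montana by edgeR's quasi-likelihood test, grey points did not pass.

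The widest difference was that of contig_5248, at 679.5 and 607 CPM for Viviez and 4.87 and 4.53 CPM for N. montana, a log2 fold change of 7.35 ± 0.36 (SE, edgeR adjusted p = 0.000565). Firmiensis had 4 and 10 reads of it, 0.0673 and 0.165 CPM. Its 3 plants thus lay at 3 separate levels, and the ratio of 27.5 that made it one of the 37 is set by N. montana. Contig_27970 stood at 27.3 and 27.1 CPM for Viviez, 4.87 and 3.14 CPM for N. montana and 0.219 and 0.215 CPM in firmiensis, with a log2 fold change of 3.01 ± 0.32 (SE, edgeR adjusted p = 0.00219).

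Contig_25076 was the second most abundant of the 37 outside firmiensis. It stood at 234 and 231 CPM for Viviez, 53.9 and 26.7 CPM for N. montana and 0.420 and 0.660 CPM in firmiensis, where it had 25 and 40 reads. It was higher in Viviez than in N. montana by 2.77 ± 0.40 on the log2 scale (SE, edgeR adjusted p = 0.00465). Each Viviez individual was above each N. montana individual by more than the distance between the individuals.

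The 2 transcripts higher in N. montana were contig_16859 and contig_4628. Contig_16859 stood at 22 and 22.6 CPM for Viviez, 139 and 122 CPM for N. montana and 1.85 and 3.0 CPM in firmiensis, with a log2 fold change of -2.30 ± 0.25 (SE, edgeR adjusted p = 0.00219). Contig_4628, whose values are given above, had a log2 fold change of -1.75 ± 0.35 (SE, edgeR adjusted p = 0.0128). Leaving out Viviez individual 1 or 2 ended its call (edgeR adjusted p = 0.0533 and 0.0876), and its 11 alternatives gave adjusted p from 0.000188 to 0.0876.

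Calls on moderate differences did not all hold over the alternatives, of which some leave out a library and others change the test. Contig_420 was higher in Viviez by 1.5 ± 0.43 on the log2 scale (SE, edgeR adjusted p = 0.0375), and the adjusted p ranged from 0.00657 to 0.176 over 11 alternatives, of which 5 ended the call. Contig_34 was higher by 1.28 ± 0.30 (SE, edgeR adjusted p = 0.0206), and 5 of its 11 alternatives ended the call, among them leaving out any of the 4 Viviez and N. montana libraries (range 0.000913 to 0.210). Without Viviez individual 1 or 2 the 14 calls fell to 5 (13.5%) and 6 (16.2%), while calls over all transcripts tested fell to 14.7% and 14.8%. Tested against a log2 fold change of 1, they were 6 (16.2%), against 20.4% of all tested.

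The contig numbers of the reduced transcripts were spread more evenly than those of the 14127. Levels fell with the number: the median of the mean CPM was 26.9 for contigs 1 to 10000 and 0.140 for contigs 30001 to 41843. Of the 14127, 53.5% had numbers up to 10000 and 2.47% had numbers over 30000, against 24.3% (9) and 16.2% (6) of the 37. The reduced transcripts were thus 0.119% of the floor transcripts in the first class, 0.216% in contigs 10001 to 20000, 0.962% in contigs 20001 to 30000 and 1.72% in the last class. The mean CPM includes the firmiensis libraries, and the 37 were chosen for low firmiensis levels. The spread of their numbers is thus not independent of the choice. The meaning of the numbers is not stated in the labels or files.

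Some reduced transcripts had a neighbour in number with a like pattern, an observation made after the values were seen. Of 30 neighbours outside the 37 that met the floor, 5 were at least 3 times above the higher firmiensis library in all 4 other libraries, against 0.75% of the 14127. That share includes the 37, which meet the 3-fold line by the rule, whereas the 30 neighbours exclude them. Of all 74 neighbours, 4 had both firmiensis libraries above the 4 others. No share over all transcripts was taken for this count, so whether it is low or high cannot be said. Contig_40879 and contig_40880, neighbours of each other, are both among the 37, with 35.2 and 33.9 against 43.3 and 44.3 CPM in Viviez and 1.03 and 0.990 against 2.08 and 0.809 CPM in firmiensis. Contig_23285, next to contig_23286, stood at 3.38 and 13.1 CPM for Viviez and 12.9 and 3.04 CPM for N. montana, and thus was high in the same individuals as its neighbour. Contig_16858 and contig_16860, on either side of contig_16859, stood at 19.0 and 34.3 CPM and at 0.555 and 1.17 CPM in firmiensis, and their lowest values elsewhere were 157 and 5.36 CPM. Whether such neighbours belong to the same gene was not tested.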

How the data were processed

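Per the file headers, the authors deposited raw read counts per contig, 1 file per library, as whole numbers. Per the labels' protocols, DNase-treated leaf RNA was made into strand-specific mRNA libraries (TruSeq Stranded mRNA). The sources used here name no assembler, aligner or counter. Of 41843 contigs, 2 with empty cells were left out, and 0 columns of other samples were present. The 4 hydroponic samples were not analysed here.

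CPM are counts over column totals. The members, lists and tests were chosen with earlier results of these data known. Viviez was tested against N. montana with edgeR 4.0.16 in R 4.3.3: filterByExpr (minimum count 10), TMM, and a quasi-likelihood fit of all 6 libraries with 3 residual degrees of freedom and Benjamini-Hochberg adjustment. With 2 individuals against 2, an exact permutation test of a single value cannot go below 0.333. The fit was also run on simulated counts in which few transcripts changed, unlike in these data, and the outcome is not given here. Alternatives used DESeq2 1.42.0 and limma 3.58.1, among others.

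Transcripts were named by a fixed rule: those with the extreme ratios to firmiensis, levels, Viviez to N. montana fold changes (past the threshold, mean CPM of at least 5, no overlap), evenness and ratios between individuals, and those beside the 6-fold line.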

Additional observations from a re-analysis of the deposited data

How the results depend on the processing

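The number of reduced transcripts, 37, moved with the rule: it was 73 at a ratio of 4, 20 at a ratio of 10, 75 at a floor of 1 CPM, 17 at a floor of 10 CPM, 22 with TMM-scaled CPM, and 45 to 110 when a library was left out, highest without firmiensis replicate 2 (110), firmiensis replicate 1 (76) and N. montana replicate 2 (57). Leaving out a library, or lowering the ratio or the floor, loosens the rule, so the number could not fall there. A higher ratio or floor could not raise it. The reads on the transcripts chosen with TMM-scaled CPM made up 0.00156% for firmiensis, 0.150% for Viviez and 0.0668% for N. montana. With a floor of 10 CPM, 60.7% of the transcripts chosen without firmiensis replicate 1 met the line in it. The 14 calls between Viviez and N. montana were 13 to 16 under 6 of 11 alternatives, among them DESeq2 (14) and limma voom (16), 6 against a log2 fold change of 1, and 5 to 12 when a library was left out. Over all transcripts 12078 calls became 6737 against a log2 fold change of 1 and 5174 to 7625 when a library was left out, where a plant is left with 1 library that is assumed to vary like the others. With the replicate number as a block the calls were 13 of the 37 and 9485 in all. The numbers pair nothing in the labels, and the correlations of the replicate differences between plants were 0.0155, -0.0598 and -0.0374. Log2 fold changes that did not pass changed sign: contig_23286 with the block (-0.24) and over -1.15 to 1.64 when a library was left out, contig_24055 with limma voom (0.20) and over -0.93 to 1.5, contig_11383 over -0.47 to 0.50, and contig_7825 over -0.0091 to 0.17. The causes were not tested. Firmiensis values of 1 to 20 reads limit the ratios of single transcripts.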
